A study of Mus musculus with 5 samples.

Results

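The 7 genes described here encode the interleukin 1 system of mouse skin: the ligands Il1a, Il1b, Il1f9 and Il18, the antagonist Il1rn, and the receptors Il1r1 and Il1r2. They were taken by symbol from the gene table that every library shares, and all 7 were found among its 27998 genes. Their transcripts were counted in 3 libraries of wounded skin and 2 libraries of un-wounded skin of C57BL/6 mice, by droplet single-cell RNA sequencing on the 10x Genomics platform. Wounded skin had been punched with a 6-mm biopsy in mice of 7 weeks, and a 10-mm disc holding the wound and its rim was taken 4 days later. Un-wounded skin was normal skin whose age the labels do not give. Live cells were sorted in both groups and no gate for a cell type was stated, so each library is a sample of all cells that came out of the tissue. Nothing says whether the libraries came from separate mice, so p-values measure only the spread between these libraries, which may be technical.

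Interleukin 1 alpha and interleukin 1 beta signal through the same receptor, the product of Il1r1, which recruits an accessory chain and the adaptor Myd88 and leads to activation of NF-kB. The product of Il1rn occupies that receptor without signalling, and Il1r2 encodes a decoy receptor that binds ligand but lacks the signalling domain. Keratinocytes are known to hold interleukin 1 alpha ready for release on injury, whereas interleukin 1 beta is made mainly by myeloid cells as a precursor that caspase 1 cleaves within the inflammasome. Interleukin 18 is cleaved in the same way and uses its own receptor, and Il1f9, now also named Il36g, encodes interleukin 36 gamma, an epithelial ligand with a different receptor of the family.

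Il1a and Il1b, Il1f9 and Il1rn, and Il1r1 and Il1r2 lie near each other as pairs (GRCm38, from the annotation supplied for this work). Il1a (ENSMUSG00000027399) spans chr2:129299610-129309972 and Il1b (ENSMUSG00000027398) chr2:129364570-129371139, both on the minus strand, 54597 bases apart with 0 protein-coding genes between them. Il1f9 (ENSMUSG00000044103, chr2:24186476-24193568) and Il1rn (ENSMUSG00000026981, chr2:24336853-24351494) lie on the plus strand of the same chromosome. The 143284 bases between them hold 3 protein-coding genes, the family members Il1f6, Il1f5 and Il1f10. The receptor genes Il1r2 (ENSMUSG00000026073, chr1:40074079-40125231) and Il1r1 (ENSMUSG00000026072, chr1:40225080-40317257) are neighbours on the plus strand, and Il18 (ENSMUSG00000039217, chr9:50554827-50581840) lies apart on the plus strand of chromosome 9. Antisense or unclassified transcripts overlap Il1a, Il1b, Il1r1 and Il1r2, and Bco2 and Tex12 overlap Il18 on the other strand. Whether the counting used strand is not given in the sources used here, so reads in the shared bases cannot be assigned with certainty.

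The promoters of the neighbours Il1a and Il1b and of the antagonist Il1rn are shown because Il1a and Il1b encode the agonists of the receptor, as neighbouring genes, and Il1rn encodes their antagonist. Each is the 250 bases before the RefSeq start on GRCm38.p6, given 5′ to 3′ on the gene's strand, and capitals mark a match to TGANTCA, the form of site that AP-1 factors are known to bind. Il1a is chr2:129309973-129310222 (minus strand), Il1b is chr2:129371140-129371389 (minus strand), and Il1rn is the most upstream of its 3 RefSeq starts, chr2:24336610-24336859 (plus strand).
Il1a: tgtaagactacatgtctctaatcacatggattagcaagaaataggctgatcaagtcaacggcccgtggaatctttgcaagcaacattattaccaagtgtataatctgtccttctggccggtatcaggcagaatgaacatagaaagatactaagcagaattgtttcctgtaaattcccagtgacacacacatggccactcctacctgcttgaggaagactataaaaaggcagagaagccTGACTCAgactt
Il1b: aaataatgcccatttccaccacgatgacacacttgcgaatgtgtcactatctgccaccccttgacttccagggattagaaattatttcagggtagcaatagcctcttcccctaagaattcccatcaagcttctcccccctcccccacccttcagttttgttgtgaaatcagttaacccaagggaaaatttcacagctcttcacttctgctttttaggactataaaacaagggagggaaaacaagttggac
Il1rn: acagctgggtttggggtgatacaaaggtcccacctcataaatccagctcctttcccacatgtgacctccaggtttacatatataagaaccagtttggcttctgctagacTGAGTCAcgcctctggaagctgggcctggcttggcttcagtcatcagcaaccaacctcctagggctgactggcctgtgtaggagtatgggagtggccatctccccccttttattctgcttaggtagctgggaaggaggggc
The Il1a promoter held TGACTCA 12 to 6 bases before the start, and the Il1rn promoter held TGAGTCA 141 to 135 bases before it. TGANTCA, searched on both strands, occurred in 6.75% of 32851 RefSeq promoters of the same length. The NF-kB type motif (GGGA and TTCC with any 2 bases between them, in 1.21% of those promoters) matched no member, and TTGCNNAA (C/EBP type, in 9.56%) matched 1, Il1r1, as TTGCTGAA 133 to 126 bases before its start. These matches describe letters in a window and do not show binding.

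After filtering, 25617 cells were kept, 3987 to 7060 in the wounded libraries and 5038 and 5137 in the un-wounded ones, with median depths of 6033.5 to 7940 UMIs (unique molecular identifiers, each standing for 1 captured transcript). Cells were clustered without the 7 genes, and 30 of 31 clusters were named from marker genes into 16 classes. The libraries held very different mixtures of cells. Dendritic cells made up 3.34, 20.6 and 10.7% of cells in wounded libraries 1 to 3, against 0.397 and 2.10% in un-wounded libraries 1 and 2. Macrophages or monocytes made up 4.62, 11 and 24.9% in wounded skin and 0.0993 and 0.779% in un-wounded skin. Neutrophils numbered 53, 144 and 46 cells in wounded skin and 0 in either un-wounded library, which allows shares of up to 0.0596 and 0.0584%. Basal keratinocytes went the other way, at 22.2, 0.751 and 3.86% of wounded cells and 44.6 and 18.4% of un-wounded cells. Wounded library 2 therefore held 33 basal keratinocytes, and un-wounded library 1 held 20 dendritic cells and 5 macrophages. Any 2 libraries shared 26 to 63 cell barcodes. Replicates of 1 group differed by far more than counting noise.

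Levels are given in CPM, a gene's UMIs over all UMIs summed in the same library or class, on the usual scale of that unit. Groups were compared with edgeR's quasi-likelihood test on sums per library, as wounded over un-wounded, and a call is a p-value under 0.05 after Benjamini-Hochberg adjustment over all genes tested. In whole libraries, with UMIs of all kept cells summed, all 7 members lay higher in every wounded library than in both un-wounded ones. The share of all genes that separated in this way was not counted, so this count has no background beside it. By the different measure of an edgeR call, 0.607% of all genes tested changed between these groups. Il1b showed the widest separation, with 388, 1928 and 2150 CPM in wounded skin and 35.5 and 85.8 CPM in un-wounded skin (log2 fold change 4.71 ± 0.97, standard error (SE), edgeR adjusted p = 0.0772). Il1a had 13.2, 19.5 and 27.3 CPM in wounded skin and 2.69 and 0.833 CPM in un-wounded skin (log2 fold change 3.52 ± 0.69, edgeR adjusted p = 0.0728). The antagonist Il1rn had 82.1, 305 and 246 CPM in wounded skin, against 67.9 and 27.8 CPM in un-wounded skin (log2 fold change 2.17 ± 0.73, edgeR adjusted p = 0.144). Within the wounded group, library 1 was lowest for all 3 of these genes. Il1f9 had 5.36, 32.5 and 7.27 CPM in wounded skin and 4.63 and 1.56 CPM in un-wounded skin (log2 fold change 2.30 ± 1.0, edgeR adjusted p = 0.211), so its wounded mean was set largely by library 2. Il18 was steadier, with 15.3, 17.4 and 20.8 CPM in wounded skin and 4.47 and 5.03 CPM in un-wounded skin (log2 fold change 1.95 ± 0.30, edgeR adjusted p = 0.0592).

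The receptor genes moved less. Il1r1 had 22.6, 29.3 and 27.4 CPM in wounded skin and 7.57 and 21.8 CPM in un-wounded skin (log2 fold change 0.91 ± 0.46, edgeR adjusted p = 0.262). Il1r2 had 316, 425 and 269 CPM in wounded skin and 268 and 246 CPM in un-wounded skin (log2 fold change 0.41 ± 0.30, edgeR adjusted p = 0.412), the groups all but touching. None of the 7 passed an adjusted p of 0.05 in whole libraries, where 94 of 15497 genes did. Of the 7 members 4 had an unadjusted edgeR p under 0.05, as did 4008 of the 15497 genes. DESeq2 called 5 members (Il1a, Il1b, Il1rn, Il1f9 and Il18), but it called 17.1% of all genes. Such sums cannot tell more cells of a type from more RNA per cell, so the members were next followed within cell classes.

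**Figure D1:**
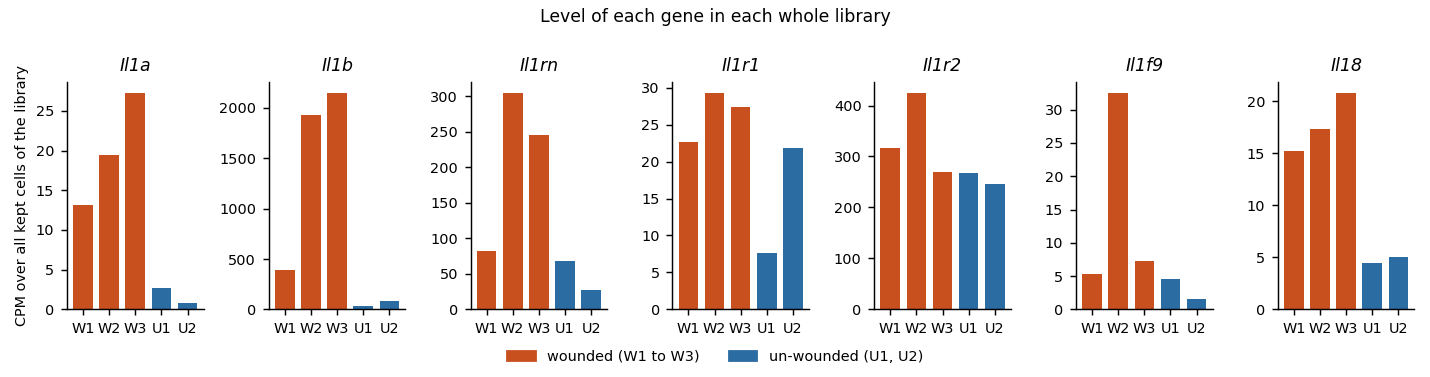
Levels of the 7 members in whole libraries, as bars in CPM from 0 with 1 bar per library, wounded libraries (W1 to W3) left of un-wounded ones (U1, U2) and a separate axis for each gene. Every member's wounded bars are taller than both un-wounded bars, by a wide gap for Il1b and by the narrowest for Il1r2.

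The ligands' UMIs were held by different mixtures of classes. In wounded skin dendritic cells held 51.2 ± 13.2% of Il1b UMIs and macrophages or monocytes 32.9 ± 14.6% (SD over 3 libraries, n = 3, here and below for wounded skin), and in un-wounded skin dendritic cells held 64.4 ± 21.3% (SD, n = 2, here and below for un-wounded skin). Macrophages or monocytes held 61.0 ± 25.0% of Il1a UMIs in wounded skin, where basal keratinocytes held 11.1 ± 15.7%, whereas basal keratinocytes held 71.3 ± 12.4% in un-wounded skin. Neutrophils held 51.5 ± 22.5% of Il1f9 UMIs in wounded skin, and basal keratinocytes 79.1 ± 3.42% in un-wounded skin. For both of these ligands the keratinocyte share gave way to a myeloid one. Fibroblasts held 45.4 ± 8.38% of Il18 UMIs in wounded skin and 31.5 ± 32.5% in un-wounded skin.

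The antagonist showed the same exchange. Macrophages or monocytes held 47.9 ± 21.1% of Il1rn UMIs in wounded skin and 0.912 ± 1.22% in un-wounded skin, where basal keratinocytes held 52.1 ± 14.3% and spinous keratinocytes 31.2 ± 9.59%. For the signalling receptor, fibroblasts held 71.7 ± 16.1% of Il1r1 UMIs in wounded skin and 46.4 ± 32.4% in un-wounded skin, and pericytes or smooth muscle held 15.2 ± 14.4% and 2.72 ± 1.48%. In un-wounded library 1 basal keratinocytes held more of it than fibroblasts, 38.9% against 23.4%. Dendritic cells held 38.1 ± 22.1% of the decoy Il1r2 in wounded skin and 0.412 ± 0.315% in un-wounded skin, where fibroblasts held 51.1 ± 42.4%. Fibroblasts also held much of it in wounded libraries 1 to 3, with 7128, 5896 and 2558 UMIs beside 2280, 6033 and 5965 in dendritic cells. Basal keratinocytes held more of it than fibroblasts in un-wounded library 1 (4967 against 1790 UMIs) and less in un-wounded library 2 (1473 against 7672). These shares depend on how many cells of each class a library captured as well as on RNA per cell, and the mixtures differed as given above.

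**Figure D2:**
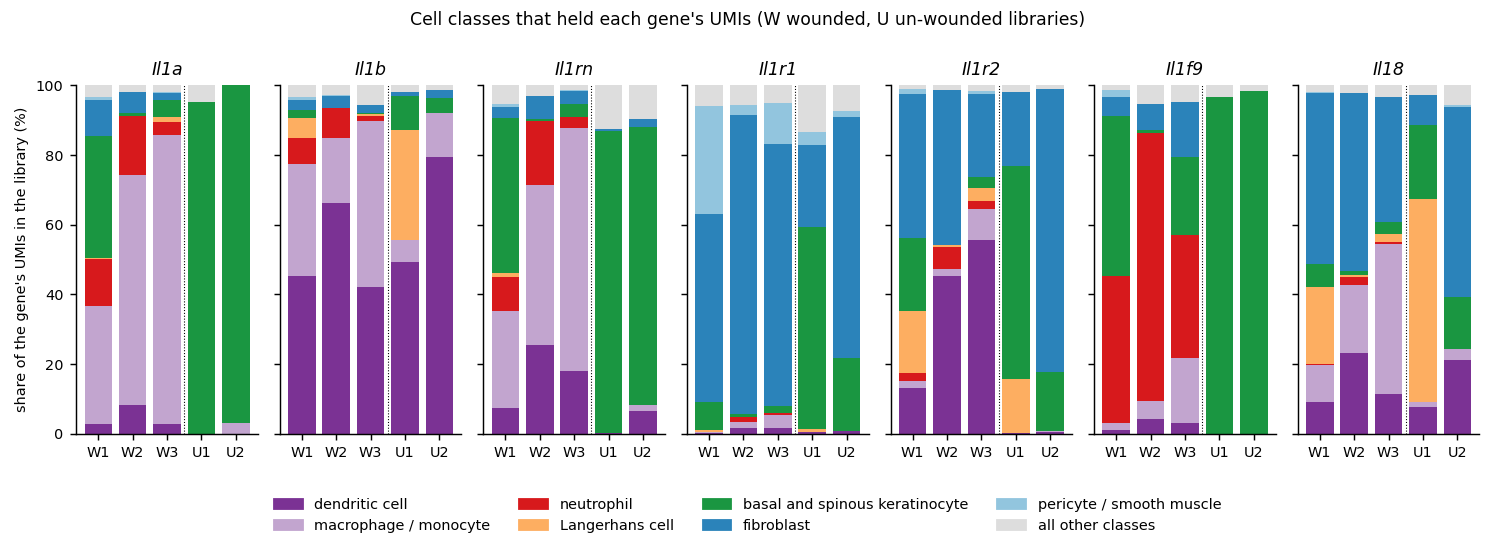
Share of each member's UMIs held by each cell class, as stacked bars in percent, 1 bar per library, wounded libraries (W) left of un-wounded ones (U). Il1a, Il1f9 and Il1rn are mainly in basal and spinous keratinocytes in the un-wounded bars and mainly in myeloid classes in the bars of wounded libraries 2 and 3, with wounded library 1 between, and Il1r1 is mainly fibroblast in 4 of the 5 bars.

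Il1b was a myeloid transcript in both groups. Dendritic cells had 5460, 5708 and 8550 CPM in wounded skin and 4670 and 3429 CPM in un-wounded skin, a difference that did not pass the test (log2 fold change 0.88 ± 0.38, edgeR adjusted p = 0.272). Macrophages or monocytes had 3716, 3163 and 6177 CPM in wounded skin and 2323 CPM in the 40 cells of un-wounded library 2, and neutrophils had 5868, 10490 and 4949 CPM in wounded skin. The ranges of these classes overlapped in wounded skin, but macrophages lay below dendritic cells within each of the 4 libraries compared. Langerhans cells, the dendritic cells of the epidermis, were lower, at 1758 CPM in wounded library 1 and 947.7 CPM in un-wounded library 1, the only libraries with at least 20 of them. The dendritic cells behind these levels numbered 236, 903 and 428 in wounded skin and 20 and 108 in un-wounded skin.

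Levels also differed among clusters within a class. Macrophage cluster 10, led by Arg1, F10 and Tnf, had 4599, 3522 and 7416 CPM of Il1b in wounded skin. Cluster 11, led by the complement genes C1qa, C1qb and C1qc of resident-type macrophages, had 1134, 893 and 2245 CPM in wounded skin and 286 CPM in un-wounded library 2. Cluster 11 was below cluster 10 in every wounded library. Among dendritic cells, cluster 8, led by Cd209a and Mgl2, had 6058, 6336 and 9445 CPM in wounded skin and 4670 and 3443 CPM in un-wounded skin. Cluster 9, led by Ccr7, the receptor of dendritic cells that migrate to lymph nodes, and by Ccl22, had 1702, 2320 and 4158 CPM in wounded skin and held 0 and 2 cells in un-wounded skin.

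The class with the highest mean Il1b in wounded skin was a cluster of 88 cells led by the mast cell protease genes Cma1, Mcpt4 and Tpsb2, at 5264, 9022 and 19290 CPM, a range that overlapped that of neutrophils. Its cells fell apart when they were divided, after these values had been seen, by which of 2 protease transcripts they held more of. The 15, 12 and 41 cells with more Mcpt8, a protease known from basophils, had 9272, 16010 and 22050 CPM of Il1b. The 6, 6 and 4 cells with more Cma1, the chymase of connective tissue mast cells, had 80.1, 711 and 340 CPM, from 3, 30 and 8 UMIs. The Il1b of that cluster was thus counted in its Mcpt8-rich cells.

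**Figure D3:**
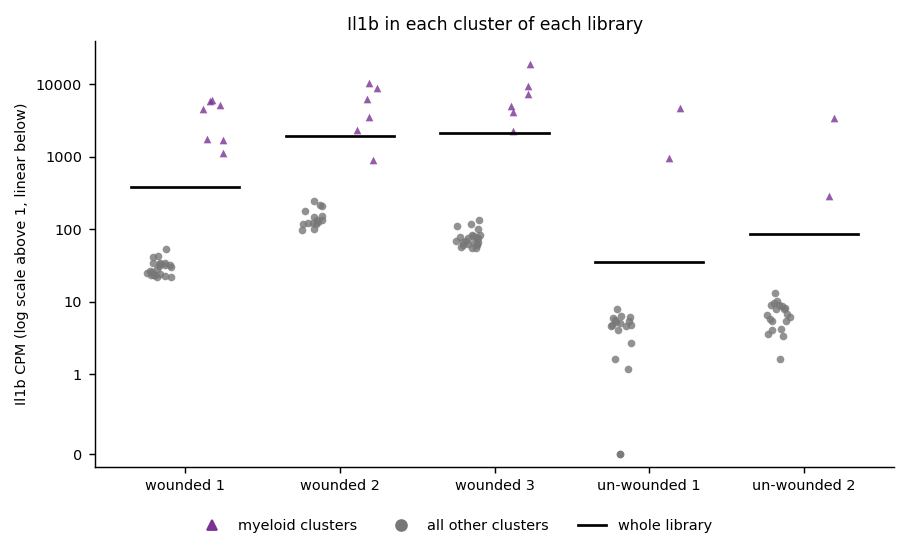
Il1b level of every cluster with at least 20 cells in a library, in CPM on an axis that is logarithmic above 1 and linear below, with triangles for myeloid clusters, circles for all others and a line at the whole-library level, wounded libraries left of un-wounded ones. Every myeloid cluster stands above every other cluster of its library, and the non-myeloid clusters of a library sit in a band whose height differs between libraries.

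Outside the myeloid classes Il1b differed both between libraries and among the clusters of a library. The non-myeloid clusters of the 3 wounded libraries had medians of 28.4, 132 and 69.2 CPM (ranges 21.7 to 53.4, 97.4 to 245 and 54.1 to 132), and those of the un-wounded libraries 4.69 and 6.65 CPM (ranges 0 to 8.01 and 1.59 to 13.2). Fibroblasts, taken as the class in which Il1b reads the free RNA of a droplet library, had 33.6, 140 and 108 CPM in wounded skin and 5.17 and 5.34 CPM in un-wounded skin. That difference passed the test (log2 fold change 4.26 ± 0.64, edgeR adjusted p = 0.00482), and so did those of basal keratinocytes (26.1, 96.3 and 69.3 CPM in wounded skin, 5.42 and 9.96 CPM in un-wounded skin, edgeR adjusted p = 0.000148) and spinous keratinocytes (23.4, 99.2 and 61.9 CPM in wounded skin, 4.11 and 8.15 CPM in un-wounded skin, edgeR adjusted p = 0.00315). Both keratinocyte classes lay below fibroblasts in every wounded library, whereas in un-wounded skin basal keratinocytes of both libraries and spinous keratinocytes of library 2 lay above them, and the part of free myeloid RNA in these levels was not tested. Upper hair follicle keratinocytes (42.0, 119 and 67.2 CPM in wounded skin, 1.16 and 4.09 CPM in un-wounded skin, edgeR adjusted p = 0.00138) and outer root sheath or bulge keratinocytes (53.4, 102 and 64.6 CPM in wounded skin, 0 and 6.06 CPM in un-wounded skin, edgeR adjusted p = 0.0095) exceeded fibroblasts, among the wounded libraries, only in library 1. Pericytes (34.2, 149 and 112 CPM in wounded skin, 5.43 and 5.45 CPM in un-wounded skin) missed the threshold (edgeR adjusted p = 0.054).

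Neutrophil transcripts were likewise higher in the wounded libraries in basal keratinocytes and fibroblasts. The summed level of 9 neutrophil markers in basal keratinocytes was 63.6, 181 and 155 CPM in wounded skin, with 1 to 3 of the 9 at 0, and 1.58 and 2.30 CPM in un-wounded skin, with 2 and 3 at 0. In fibroblasts it was 121, 249 and 339 CPM in wounded skin, with 0 or 1 at 0, and 22.9 and 25.3 CPM in un-wounded skin, with 7 and 2 at 0. The sum was highest in wounded library 3 in fibroblasts, where Il1b was highest in wounded library 2. In basal keratinocytes both were highest in wounded library 2. S100a8 and S100a9 are on that list and are known from wound keratinocytes as well. The list of 12 macrophage markers summed to 64.4, 94.8 and 137 CPM in wounded fibroblasts and to 81.1 and 105 CPM in un-wounded ones, so the sum did not separate the groups. Gene by gene, edgeR called 1 of the 10 tested there higher and 1 lower (median log2 fold change 1.51). Of 7 dendritic cell markers tested in fibroblasts 1 was called higher (1.03), where 7.5% of all genes were called. In basal keratinocytes 1 of 5 macrophage markers (1.68) and 2 of 3 dendritic cell markers (3.28) were called higher, where 1.76% of all genes were called. The part of myeloid RNA in the Il1b calls of these classes was not tested.

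**Figure D4:**
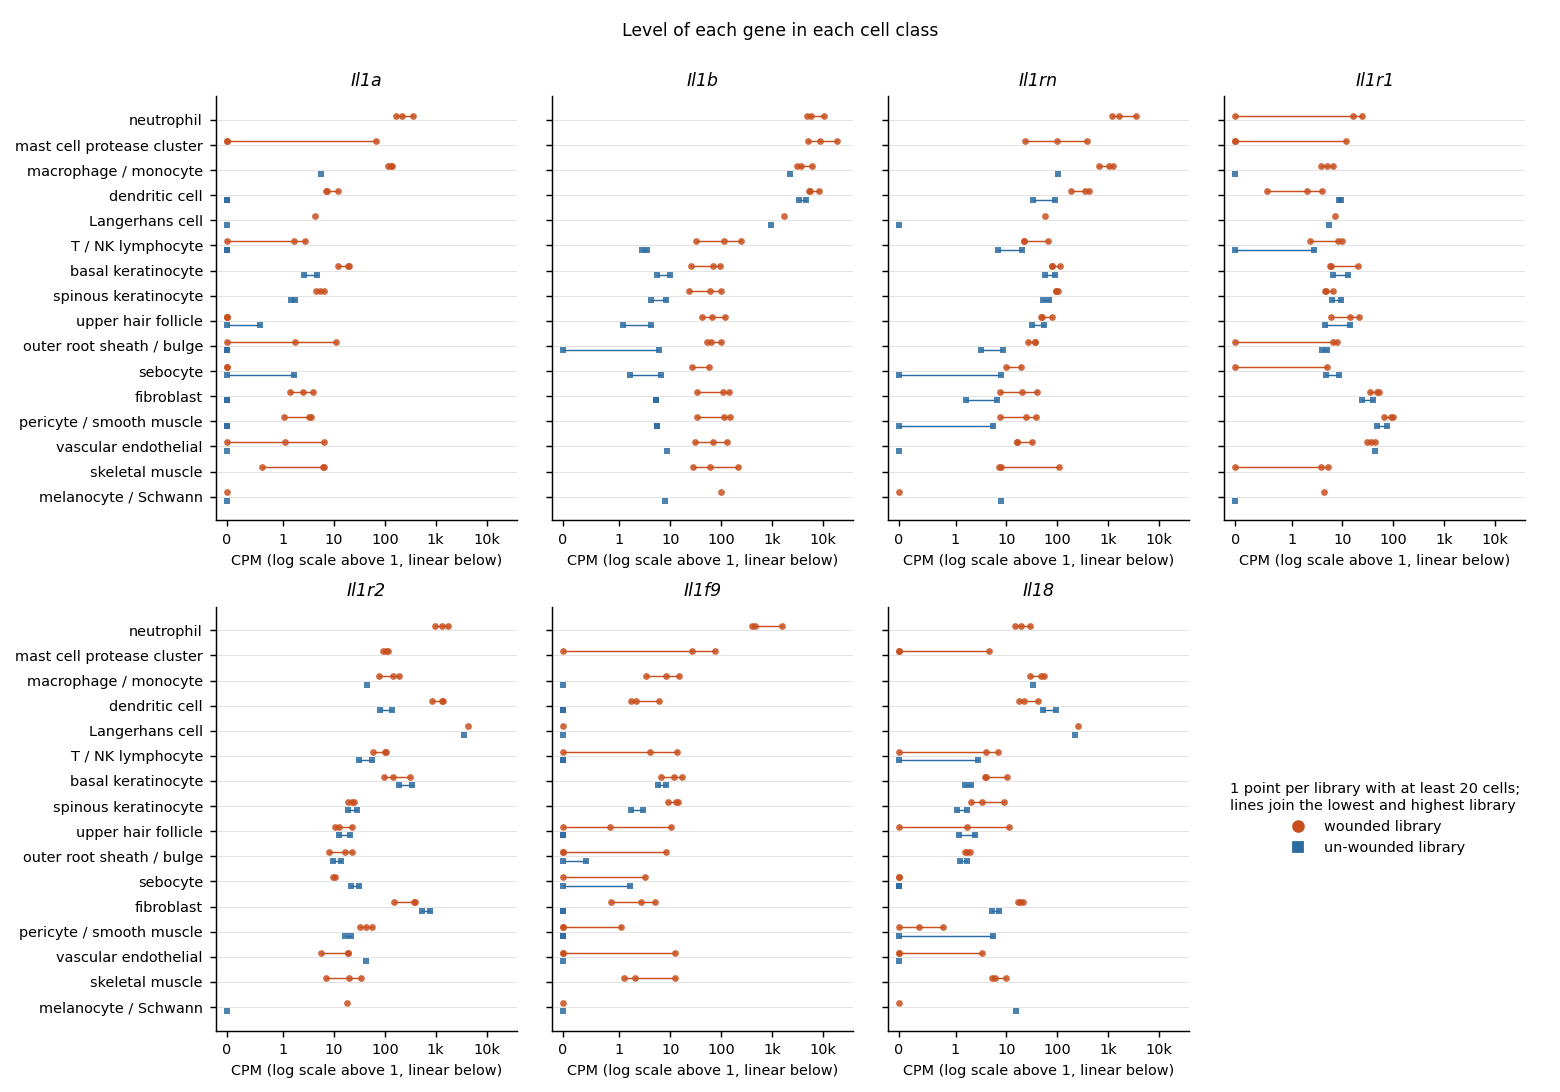
Level of each member in each cell class, in CPM on an axis that is logarithmic above 1 and linear below, with 1 point per library that held at least 20 cells of the class, wounded libraries (circles) above un-wounded ones (squares), and lines from the lowest to the highest library. Il1b is high in dendritic, macrophage, neutrophil, mast cell protease and Langerhans classes, Il1r1 in pericytes, fibroblasts and vascular endothelium, and Il1r2 and Il18 in Langerhans cells.

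Il1a was highest in the wound's neutrophils, at 360, 212 and 163 CPM, followed by macrophages or monocytes at 132, 113 and 136 CPM in wounded skin and 5.56 CPM, a single UMI, in un-wounded library 2. In wounded libraries 1, 2 and 3 the 2 highest cells held 40.6, 23.3 and 90.2% of the neutrophil Il1a UMIs, so the neutrophil level of library 3 rests on 2 cells. The ranges of macrophages and basal keratinocytes did not overlap in wounded skin. Within the macrophages the transcript lay mainly in cluster 10 (Arg1, F10, Tnf), at 177, 131 and 177 CPM in wounded skin. Cluster 11 (C1qa) had 0, 4.12 and 6.94 CPM in wounded skin and 11 CPM in un-wounded library 2. Dendritic cells, the main holders of Il1b, had only 12, 7.26 and 6.90 CPM of Il1a in wounded skin and no UMI in un-wounded skin, at least 2.56-fold higher in wounded skin against a floor of 3 UMIs over the un-wounded group (edgeR adjusted p = 0.0688).

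In basal keratinocytes Il1a had 18.9, 12 and 19.2 CPM in wounded skin and 4.66 and 2.55 CPM in un-wounded skin. The groups did not overlap, and the difference passed the test (log2 fold change 2.45 ± 0.38, edgeR adjusted p = 0.000405), although the 12 CPM of wounded library 2 rested on 3 UMIs. Vascular endothelium, taken as the background class for Il1a, had 0, 6.29 and 1.08 CPM in wounded skin, the last 2 from 1 UMI each, and no UMI in un-wounded skin. A floor of 3 UMIs there is 18.9 CPM in wounded library 2 and 44.0 and 25.9 CPM in un-wounded libraries 1 and 2. These floors lie above the basal levels of the same libraries, so the counts there cannot place a background below them. The transcript was uneven among basal clusters. Cluster 1, led by Epgn, Fosl1 and Krt16, genes known from the wound edge, had 45.8 and 37.2 CPM in wounded libraries 1 and 3 and 33.3 and 27.0 CPM in un-wounded libraries 1 and 2. Cluster 4, led by Col17a1, had 1.49 and 0 CPM in the same wounded libraries and 0.262 and 0.251 CPM in un-wounded skin. Cluster 1 was 21.7 ± 5.73% of basal keratinocytes in wounded skin and 4.80 ± 0.960% in un-wounded skin. Without it the class still differed (log2 fold change 2.60, edgeR adjusted p = 0.00972, an alternative chosen after seeing the data).

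Spinous keratinocytes, the layer above, had 6.21, 4.41 and 5.20 CPM of Il1a in wounded skin and 1.72 and 1.45 CPM in un-wounded skin (log2 fold change 2.00 ± 0.47, edgeR adjusted p = 0.0459). That call was lost in 12 of 13 alternatives (adjusted p up to 0.399). Fibroblasts had 3.92, 2.42 and 1.33 CPM of Il1a in wounded skin and no UMI in un-wounded skin (edgeR adjusted p = 0.0109, at least 14.3-fold higher against a floor of 3 UMIs over the un-wounded group). The 74, 36 and 23 UMIs behind it stand beside vascular endothelial levels of 0, 6.29 and 1.08 CPM in the same libraries, and in wounded library 1 the 2 highest cells held 63.5% of them. The call was lost without un-wounded library 2 (edgeR adjusted p = 0.147), with doublets kept (0.182) and without the Cthrc1-rich cluster 27 (0.12). In the un-wounded libraries, classes other than basal and spinous keratinocytes and the single macrophage UMI had at most 1.60 CPM.

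Il1f9 was a neutrophil transcript in the wound, at 462, 1618 and 404 CPM, above every other wounded class. In un-wounded skin, which held no neutrophil, basal keratinocytes were highest, at 8.16 and 5.87 CPM, above spinous keratinocytes at 2.91 and 1.71 CPM. Basal keratinocytes had 6.46, 12 and 16.8 CPM in wounded skin, overlapping their un-wounded range (log2 fold change 0.78, edgeR adjusted p = 0.652). Spinous keratinocytes had 9.10, 13.2 and 14.2 CPM in wounded skin and did not overlap their un-wounded range (log2 fold change 2.52 ± 0.43, edgeR adjusted p = 0.00573). Few cells carried that difference, since the 2 highest cells of each library held 55.6, 66.7 and 36.7% of the spinous Il1f9 UMIs in wounded skin and 9.09 and 15.4% in un-wounded skin. Without those cells the adjusted p was 0.187 (edgeR), and the 9 neutrophil markers summed to 551, 3555 and 378 CPM in wounded spinous cells, with 1 to 3 of the 9 at 0, against 1.99 and 2.76 CPM in un-wounded ones, with 3 and 2 at 0. Their part in the result was not tested.

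Within spinous cells, cluster 2, led by Krt77 and Krt78, had 15.4, 12.1 and 16.8 CPM in wounded skin and 1.0 and 0.427 CPM in un-wounded skin. Cluster 0, led by Ovol1 and Sprr1b, had 5.64, 22.9 and 14.9 CPM in wounded skin and 2.83 and 2.80 CPM in un-wounded skin. Few UMIs stood behind these levels in wounded library 2, 2 in cluster 2 and 3 in cluster 0. Cluster 7, led by Mt4 and Krt1, had 2.78, 6.37 and 4.08 CPM in wounded skin and 5.35 and 2.01 CPM in un-wounded skin. Fibroblasts, the background class for Il1f9, had 0.848, 5.05 and 2.60 CPM in wounded skin from 16, 75 and 45 UMIs and none in un-wounded skin (edgeR adjusted p = 0.0338, at least 15.8-fold higher against a floor of 3 UMIs over the un-wounded group). Wounded library 2, the highest of the 3, was also the library with the most neutrophils, whose part in the result was not tested, and the call was lost in 7 of 14 alternatives (adjusted p up to 0.277).

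Il18 had its highest level in Langerhans cells, at 260 CPM in wounded library 1 and 221 CPM in un-wounded library 1. Macrophages or monocytes had 48.0, 29.5 and 53.9 CPM in wounded skin and 33.4 CPM in un-wounded library 2, and dendritic cells had 42.9, 18.1 and 22.6 CPM in wounded skin and 93.1 and 53.7 CPM in un-wounded skin. The dendritic groups did not overlap, and wounded skin was lower, but the difference missed the threshold (log2 fold change -1.19 ± 0.40, edgeR adjusted p = 0.142). The Ccr7-led dendritic cluster 9 had only 8.33, 4.55 and 2.81 CPM in wounded skin. In macrophages the order was the reverse of that for Il1a, with 77.0, 51.4 and 83.9 CPM in cluster 11 (C1qa) in wounded skin, above the class mean.

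The clearest change of Il18 was in fibroblasts, at 21.6, 18.8 and 17.1 CPM in wounded skin and 5.17 and 7.29 CPM in un-wounded skin. The wounded values were close together and all above the un-wounded ones (log2 fold change 1.63 ± 0.25, edgeR adjusted p = 0.00559), and this call held in every alternative run. Vascular endothelium, the background class for Il18, had 0, 0 and 3.25 CPM in wounded skin and no UMI in un-wounded skin. A floor of 3 UMIs there is 3.08, 18.9 and 3.25 CPM in wounded skin and 44.0 and 25.9 CPM in un-wounded skin. It lies under the fibroblast level only in wounded libraries 1 and 3, so the other counts cannot place a background below fibroblasts. Among fibroblasts, cluster 16, led by Cxcl13 and Lbp, had 45.8, 57.6 and 33.7 CPM in wounded skin, 8.55 CPM in un-wounded library 2 and no UMI in the 31 cells of un-wounded library 1. Cluster 27, led by Cxcl5 and Cthrc1, had 26.2, 21.2 and 17.8 CPM in wounded skin and held 1 and 3 cells in un-wounded skin. Keratinocytes held little Il18, with 3.82, 4.01 and 10.1 CPM in wounded basal cells and 1.51 and 2.04 CPM in un-wounded ones (log2 fold change 1.97, edgeR adjusted p = 0.0989).

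The antagonist Il1rn was highest in neutrophils, at 1655, 3614 and 1197 CPM in wounded skin, and in macrophages or monocytes, at 678, 1234 and 1030 CPM in wounded skin and 106 CPM in un-wounded library 2. The ranges of these classes overlapped. Within macrophages it was again cluster 10 that was high, at 848, 1399 and 1267 CPM in wounded skin, against 180, 193 and 279 CPM in wounded cells and 33.0 CPM in un-wounded library 2 for cluster 11. Dendritic cells had 189, 346 and 418 CPM in wounded skin and 33.8 and 90.4 CPM in un-wounded skin. The groups did not overlap and the difference passed the test (log2 fold change 2.25 ± 0.49, edgeR adjusted p = 0.0336), though the call was lost without wounded library 2 (0.0851), wounded library 3 (0.0822), un-wounded library 1 (0.188) or un-wounded library 2 (0.199).

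In the epidermis Il1rn was present in both groups. Basal keratinocytes had 115, 80.2 and 78.9 CPM in wounded skin and 91.4 and 57.2 CPM in un-wounded skin, which overlapped (log2 fold change 0.48, edgeR adjusted p = 0.693). Spinous keratinocytes had 105, 97.0 and 95.5 CPM in wounded skin and 69.3 and 53.4 CPM in un-wounded skin, which did not overlap (log2 fold change 0.90 ± 0.25, edgeR adjusted p = 0.0954). Outer root sheath or bulge keratinocytes had 26.7, 36.6 and 37.2 CPM in wounded skin and 8.45 and 3.23 CPM in un-wounded skin (log2 fold change 2.98 ± 0.49, edgeR adjusted p = 0.0174). Skeletal muscle, the background class for Il1rn, had 7.24, 110 and 8.02 CPM in wounded skin, but 72.2% of its UMIs in wounded library 2 lay in 2 cells, as did 64.7 and 68.4% of the outer root sheath UMIs in wounded libraries 1 and 3. The 9 neutrophil markers summed to 168, 171 and 116 CPM in wounded outer root sheath cells, with 2 to 5 of the 9 at 0, and to 8.45 and 5.25 CPM in un-wounded ones, with 8 and 6 at 0, and their part in the result was not tested. The call was lost in 4 of 11 alternatives, with an adjusted p of 0.378 (edgeR) without un-wounded library 2.

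The ratio of Il1rn UMIs to the UMIs of its competitors Il1a and Il1b was lower in wounded skin. Its log2 value was -2.29, -2.68 and -3.15 in wounded libraries and 0.83 and -1.64 in un-wounded ones, so Il1rn outnumbered both agonists together in 1 library, un-wounded 1. The means were -2.70 ± 0.43 in wounded skin (SD, n = 3) and -0.40 ± 1.75 in un-wounded skin (SD, n = 2), a difference of -2.30. The two-sided exact permutation test gave p = 0.1, the smallest that 10 assignments allow, and 0.2 after Benjamini-Hochberg adjustment over the 2 ratios tested. Within dendritic cells the ratio ran the other way, at -4.86, -4.05 and -4.36 in wounded skin and -7.11 and -5.25 in un-wounded skin. Within basal keratinocytes it was 1.35, -0.43 and -0.17 in wounded skin and 3.18 and 2.19 in un-wounded skin. There Il1b gave 287 of 495, 24 of 27 and 144 of 184 agonist UMIs in wounded skin and 79 of 147 and 78 of 98 in un-wounded skin. The part of free myeloid RNA in that Il1b was not tested, and wounded library 2 rested on 20 Il1rn UMIs.

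The signalling receptor Il1r1 had its highest levels in stromal classes, led by pericytes or smooth muscle in both groups. Pericytes or smooth muscle had 67.0, 92.2 and 101 CPM in wounded skin and 48.9 and 76.3 CPM in un-wounded skin (log2 fold change 0.41 ± 0.39, edgeR adjusted p = 0.499). Fibroblasts had 35.3, 53.0 and 47.4 CPM in wounded skin and 24.1 and 40.3 CPM in un-wounded skin (log2 fold change 0.55 ± 0.30, edgeR adjusted p = 0.323). Both pairs overlapped. Vascular endothelium had 36.0, 44.0 and 30.3 CPM in wounded skin and 43.1 CPM in un-wounded library 2, overlapping fibroblasts in wounded skin. Macrophages, the background class for Il1r1, had 3.82, 5.06 and 6.49 CPM in wounded skin and no UMI in un-wounded skin.

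Epithelial levels of Il1r1 were lower. Basal keratinocytes had 6.01, 20.1 and 5.77 CPM in wounded skin and 6.38 and 13.2 CPM in un-wounded skin (log2 fold change -0.31, edgeR adjusted p = 0.912), near the macrophage background in wounded libraries 1 and 3. Dendritic cells had 0.571, 1.99 and 4.05 CPM in wounded skin and 8.46 and 9.17 CPM in un-wounded skin (log2 fold change -1.76, edgeR adjusted p = 0.33), with 1 UMI each in wounded library 1 and un-wounded library 1. Among fibroblast clusters, cluster 16 (Cxcl13, Lbp) had 55.3, 67.7 and 54.2 CPM in wounded skin and 96.1 and 70.3 CPM in un-wounded skin, and cluster 29, led by Thbs4, had 49.8, 88.3 and 52.2 CPM in wounded skin. No class showed a called change of Il1r1 in these edgeR fits.

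The decoy receptor Il1r2 was highest in Langerhans cells, at 4395 CPM in wounded library 1 and 3548 CPM in un-wounded library 1. Neutrophils had 1358, 1717 and 948 CPM in wounded skin, a range that overlapped that of dendritic cells. Dendritic cells had 1303, 859 and 1420 CPM in wounded skin and 135 and 78.6 CPM in un-wounded skin. The wounded values were all several times the un-wounded ones, and the difference passed the test (log2 fold change 3.74 ± 0.40, edgeR adjusted p = 0.00109). The share of dendritic cells with at least 1 Il1r2 UMI was 67.0, 68.1 and 76.9% in wounded skin and 35.0 and 32.4% in un-wounded skin. With every cell thinned to 1500 UMIs it was 44.9, 41.9 and 58.6% in wounded skin and 15.8 and 11.1% in un-wounded skin.

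In upper hair follicle keratinocytes 6.67, 5.56 and 18.4% of wounded cells and 10.6 and 7.03% of un-wounded cells had a UMI of Il1r2. Median depths were 7023, 7713 and 9462 UMIs in wounded dendritic cells and 5747 and 6179 in un-wounded ones, and 5252, 5246 and 7823.5 UMIs in wounded follicle cells and 5824 and 5802 in un-wounded ones. Fibroblasts had been meant as the background class for Il1r2 but expressed it at levels of their own, given below. The follicle cells were taken in their place after the data had been seen. The part of free RNA in the dendritic levels was not tested. The difference lay within dendritic cluster 8 (Cd209a, Mgl2), at 1364, 970 and 1579 CPM in wounded skin and 135 and 79.7 CPM in un-wounded skin, while cluster 9 (Ccr7) had 916, 260 and 639 CPM in wounded skin. Leaving out cluster 9, a choice made after seeing the data, gave a log2 fold change of 3.82 (edgeR adjusted p = 0.000993). The 5 Langerhans markers summed to 290, 66.8 and 206 CPM in wounded dendritic cells, with none at 0, and to 169 and 166 CPM in un-wounded ones, with 2 and 0 at 0, so their ranges overlapped. The 12 macrophage markers did separate the groups, with 1387, 798 and 1180 CPM in wounded dendritic cells and 5118 and 5397 CPM in un-wounded ones, and their part in the result was not tested. Un-wounded library 1 held 16 Il1r2 UMIs in its 20 dendritic cells, and without un-wounded library 2 the adjusted p was 0.0707 (edgeR).

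Fibroblasts went the other way without passing the test. They had 378, 397 and 148 CPM of Il1r2 in wounded skin and 772 and 533 CPM in un-wounded skin, groups that did not overlap (log2 fold change -1.0 ± 0.37, edgeR adjusted p = 0.154). The level depended on the cluster. Cluster 14, led by Cpz and Cldn10, had 945, 706 and 451 CPM in wounded skin and 941 and 647 CPM in un-wounded skin, and cluster 16 had 544, 461 and 285 CPM in wounded skin and 1057 and 656 CPM in un-wounded skin. The wound cluster 27 (Cxcl5, Cthrc1) had only 33.0, 42.4 and 36.7 CPM and made up 22.2, 11 and 33.0% of fibroblasts in wounded skin, against 0.207 and 0.145% in un-wounded skin. Basal keratinocytes had 312, 96.3 and 144 CPM in wounded skin and 341 and 188 CPM in un-wounded skin (log2 fold change -0.31 ± 0.37, edgeR adjusted p = 0.892), and spinous keratinocytes only 18.4 to 24.3 CPM in wounded skin and 18.9 and 28.1 CPM in un-wounded skin. The similar whole-library levels of Il1r2 therefore summed different mixtures, in which dendritic cells held 13.3 to 55.7% in wounded skin and 0.189 and 0.635% in un-wounded skin.

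The log2 ratio of decoy to signalling receptor, Il1r2 over Il1r1, was 3.81, 3.86 and 3.30 in wounded libraries and 5.15 and 3.50 in un-wounded ones. The means of 3.65 ± 0.31 in wounded skin (SD, n = 3) and 4.32 ± 1.17 in un-wounded skin (SD, n = 2) differed by -0.67, within the spread of the un-wounded libraries (two-sided exact permutation p = 0.4, adjusted 0.4). Within fibroblasts it was 3.42, 2.9 and 1.64 in wounded skin and 5.0 and 3.73 in un-wounded skin, without overlap.

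**Figure D5:**
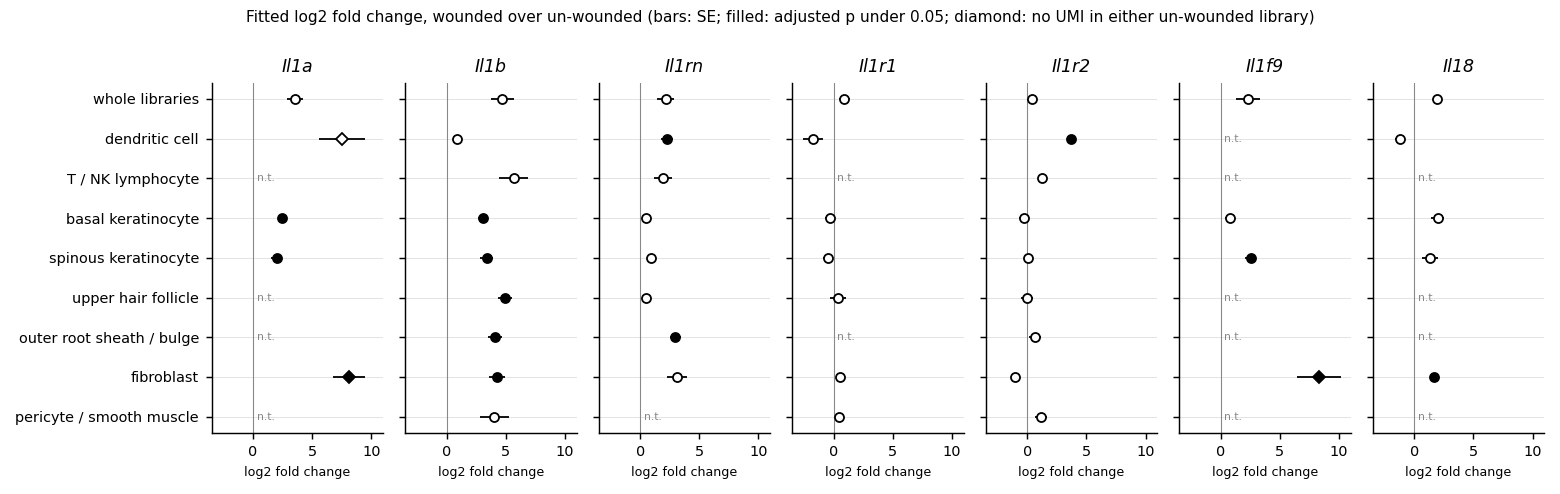
Log2 fold changes of the 7 members, wounded over un-wounded, in whole libraries and in the 8 classes tested, with bars of 1 SE, where filled points have an edgeR adjusted p under 0.05, open points do not, diamonds mark a member without a UMI in either un-wounded library, and n.t. marks a member under the filter on low counts that was not tested. Il1b is filled in 5 classes, Il1rn in 2, Il1r2 in dendritic cells and Il18 in fibroblasts, and Il1r1 in none of the fits shown.

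Counted by class, the members compared with the background of all genes as follows. The members were chosen with earlier results of these data known, so these counts are descriptions. In fibroblasts all 7 were tested and 4 were called, each of them higher (Il1a, Il1b, Il1f9 and Il18), where 7.5% of 13300 genes changed. In spinous keratinocytes all 7 were tested and 3 were called, each higher (Il1a, Il1b and Il1f9), where 1.64% of genes changed. In basal keratinocytes all 7 were tested and 2 were called, both higher (Il1a and Il1b), where 1.76% of genes changed. In dendritic cells 6 were tested and 2 were called, both higher (Il1rn and Il1r2), where 3.52% of genes changed. Outer root sheath or bulge cells had 3 tested and 2 called, both higher (Il1b and Il1rn; 0.818% of genes changed), and upper hair follicle cells had 4 tested and 1 called, higher (Il1b; 0.196%). Pericytes or smooth muscle had 3 tested and 0 called in edgeR, where 17.4% of genes changed. Of these members 2 had an unadjusted edgeR p under 0.05, as did 1332 of all 4000 genes. DESeq2 called 1 member there, Il1b, and 16.4% of genes. In T or NK lymphocytes edgeR called 0 of 3 tested members and 0 of 6547 genes, a background of 0%, with 841 genes and all 3 members at an unadjusted p under 0.05, and DESeq2 called 1 member, Il1b, and 1.27% of genes. Lymphocyte Il1b was 31.5, 244 and 113 CPM in wounded skin and 3.41 and 2.75 CPM in un-wounded skin. Lymphocyte clusters are part of the non-myeloid ranges given above, so those ranges cannot place this level. Fibroblasts had 33.6, 140 and 108 CPM in wounded skin and 5.17 and 5.34 CPM in un-wounded skin. Lymphocytes exceeded them only in wounded libraries 2 and 3. No member was called lower in these edgeR fits.

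Several differences that missed the threshold had groups that did not overlap, though the share of all genes that did so was not counted. In T or NK lymphocytes Il1r2 had 103, 57.3 and 99.99 CPM in wounded skin and 54.6 and 30.3 CPM in un-wounded skin (log2 fold change 1.28 ± 0.37, edgeR adjusted p = 0.256). In pericytes or smooth muscle it had 43.2, 31.9 and 54.8 CPM in wounded skin and 16.3 and 21.8 CPM in un-wounded skin (log2 fold change 1.20 ± 0.50, edgeR adjusted p = 0.129). Fibroblast Il1rn had 7.47, 41.0 and 20.7 CPM in wounded skin and 6.47 and 1.60 CPM in un-wounded skin (log2 fold change 3.09 ± 0.83, edgeR adjusted p = 0.056) and lay above the skeletal muscle level in wounded libraries 1 and 3 and below it in library 2. Il1rn in T or NK lymphocytes, at 22.5, 64.9 and 22.4 CPM in wounded skin and 20.5 and 6.89 CPM in un-wounded skin, did not pass either (edgeR adjusted p = 0.35). The groups overlapped for Il1rn, Il1r1 and Il1r2 in upper hair follicle cells and for Il1r1 and Il1r2 in spinous cells, where the log2 fold changes lay between -0.50 and 0.52.

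The wound effect itself was compared between fibroblasts and basal keratinocytes of the same libraries. The difference of log2 fold changes passed the test for 1 member, Il1f9 (6.29 ± 1.47, edgeR adjusted p = 0.0181), where 3.54% of 13833 genes did. That fitted value rests on un-wounded fibroblasts without an Il1f9 UMI and is no measure of size. For Il18 the difference was -0.08 (edgeR adjusted p = 0.991), for Il1a 4.92 (0.181), for Il1rn 2.04 (0.0835), for Il1b 1.03 (0.0874), for Il1r1 0.71 (0.326) and for Il1r2 -0.80 (0.401).

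Genes known to act downstream of interleukin 1 were tested in the same classes. Of 18 NF-kB feedback and interleukin 1 responsive genes, 12 of 18 tested rose in fibroblasts (median log2 fold change 4.03), 10 of 16 in basal keratinocytes (2.81) and 8 of 15 in spinous keratinocytes (2.76). In pericytes or smooth muscle 6 of 11 rose (1.72), in outer root sheath or bulge cells 5 of 10 (2.38) and in upper hair follicle cells 4 of 10 (1.76). In dendritic cells 2 of 13 rose (1.18) and in T or NK lymphocytes 0 of 11 (0.35, edgeR). In those lymphocytes 5 of the 11 had an unadjusted edgeR p under 0.05, as did 841 of all 6547 genes. None fell, and the median over all genes tested lay between -0.07 and 0.06 in every class. Of all genes tested, edgeR called 7.5% in fibroblasts, 1.76% in basal and 1.64% in spinous keratinocytes, in either direction. It called 17.4% in pericytes or smooth muscle, 0.818% in outer root sheath or bulge cells and 0.196% in upper hair follicle cells. In dendritic cells it called 3.52% and in T or NK lymphocytes 0%. In whole libraries, where 0.607% of all genes were called, 3 of 18 rose (median 3.57), namely Cxcl1, Cxcl5 and Csf3. Many of these genes are known to answer other signals as well. This list and the other pathway lists below were chosen with earlier results of these data known. Their counts are therefore descriptions and give no independent evidence of a response to interleukin 1.

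Fibroblasts held high levels of several of these genes. Cxcl1, a neutrophil attractant, had 3924, 1066 and 3463 CPM in wounded fibroblasts and 40.1 and 66.1 CPM in un-wounded ones (log2 fold change 5.80, edgeR adjusted p = 0.00175). Cxcl2, of the same family, had 1193, 591 and 1145 CPM in wounded fibroblasts and 0.862 and 7.22 CPM in un-wounded ones. Ptgs2, the inducible prostaglandin synthase, had 124, 109 and 150 CPM in wounded fibroblasts and 3.02 and 5.14 CPM in un-wounded ones. In each case all wounded libraries lay far above both un-wounded ones. Among the 6 smallest p-values of the pathway genes, basal keratinocytes had Cxcl2, Saa3, Ccl20, Cxcl1, Ccl2 and Cxcl5, and spinous keratinocytes had Saa3, Cxcl2, Cxcl1, Cxcl5, Ccl2 and Ccl20. Basal Cxcl2 was 123, 309 and 98.1 CPM in wounded skin and 1.44 and 3.45 CPM in un-wounded skin, beside 1206, 2715 and 3807 CPM in whole wounded libraries, and the part of free RNA in it was not tested. Pericytes or smooth muscle had Ccl2, Cxcl2, Icam1, Tnfaip3, Casp8 and Ccl20, outer root sheath or bulge cells Cxcl2, Ccl2, Lcn2, Saa3 and Cxcl1, upper hair follicle cells Cxcl2, Cxcl1, Saa3 and Ccl2, and dendritic cells Cxcl1, Saa3 and Nlrp3.

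Other parts of the pathway changed in few classes. Of 12 other family ligands, receptors and soluble antagonists, 3 of 7 tested rose in fibroblasts (7.5% of all genes called) and 0 in each other class (edgeR). They were Il33, an alarmin of the family, its receptor Il1rl1, and Il18r1, the receptor chain for interleukin 18. Il1rl1 had 122, 44.4 and 136 CPM in wounded fibroblasts and 0 and 0.347 CPM in un-wounded ones, and Il18r1 had 7.74, 9.89 and 17.3 CPM in wounded fibroblasts and 0 and 0.208 CPM in un-wounded ones. Il33 had 104, 52.7 and 120 CPM in wounded fibroblasts and 22.0 and 5.0 CPM in un-wounded ones (log2 fold change 3.13, edgeR adjusted p = 0.0158), and missed the threshold in basal keratinocytes (271, 104 and 161 CPM in wounded skin, 302 and 154 CPM in un-wounded skin, edgeR adjusted p = 0.953). Ligand and receptor of 2 branches of the family, Il18 with Il18r1 and Il33 with Il1rl1, were thus higher in the same wounded fibroblast sums.

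Of 12 adaptors and kinases, 2 of 12 tested rose in fibroblasts (7.5% of all genes called), Irak2 and the inhibitory kinase Irak3. In each other class 0 rose (edgeR). Irak3 had 25.9, 24.6 and 20.3 CPM in wounded fibroblasts and 10.4 and 12.5 CPM in un-wounded ones (log2 fold change 1.11, edgeR adjusted p = 0.0188). Of 14 inflammasome and processing genes, Nlrp3, the sensor of the inflammasome, was called higher in dendritic cells, where it had 60.0, 156 and 108 CPM in wounded skin and 16.9 and 27.5 CPM in un-wounded skin (log2 fold change 2.21, edgeR adjusted p = 0.0475). It was also called in fibroblasts (3.08, 16.4 and 6.12 CPM in wounded skin, 0 and 0.139 CPM in un-wounded skin) and in basal keratinocytes (2.00, 16 and 1.44 CPM in wounded skin, none in un-wounded skin), in both of which wounded library 2 was highest. In basal keratinocytes 3 UMIs are 12 CPM in wounded library 2, with its 33 cells, and 1.44 CPM in wounded library 3. The basal levels of these libraries thus lay near or at that floor. The channel gene Panx1 rose in fibroblasts and Casp8 in pericytes. None of the 3 lists had a gene called lower in a class.

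Over 29 profiles, 1 for each class and group with enough cells, the genes most like a member were ranked by Pearson's r of log2(CPM + 1) among 6748 genes. The profiles share libraries and background RNA, so these values are descriptions. Il1b was closest to Plek (0.975), Nlrp3 (0.947) and Itgam (0.941). Il1a was closest to C5ar1 (0.807), F10 (0.806) and Clec4e (0.805), and Il1rn to Slc7a11 (0.807), Sema4d (0.792) and Clec4e (0.79). Il1f9 was closest to the neutrophil gene Retnlg (0.891), then Gm20406 (0.888) and Wfdc21 (0.887). Il18 was closest to Card9 (0.87), Gm6377 (0.864) and the macrophage receptor Csf1r (0.859). Il1r1 was closest to Ebf1 (0.816), Snai1 (0.801) and Agtr1a (0.8), and Il1r2 to Prkcb (0.771), Med7 (0.767) and Dapp1 (0.746). Among the members, Il1a and Il1rn were most alike (0.807), ahead of Il1a and Il1f9 (0.79), Il1rn and Il1f9 (0.725), and Il1a and Il1b (0.657).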

How the data were processed

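The deposited UMI counts per gene and cell were made by the authors with Cell Ranger 1.3.1 on mm10, per the submitters' processing notes; other steps are not given in the sources used here. Cells needed 200 or more detected genes and no more than 10% of UMIs from mitochondrial genes, and doublets found by Scrublet, at a rate set by the number of barcodes, were removed. Libraries held 33537809 to 59621412 UMIs before filtering. Cells were clustered with scanpy 1.11.5 (2000 variable genes without the members, 30 components, 15 neighbours, Leiden resolution 1.0), and a cluster was named from at least 3 markers at 10 CPM or more with a score margin of 0.5. UMIs were summed per library and class and tested with edgeR 4.0.16 (R 4.3.3; filterByExpr, TMM, quasi-likelihood test, Benjamini-Hochberg over all genes tested, call at an adjusted p under 0.05) in the 8 classes with at least 20 cells in every library. Cells are not replicates. The code was tested on simulated counts. DESeq2 1.42.0, no filter, no TMM, a replicate block, other clusterings and filters and leaving out each library were alternatives. Intervals are exact Clopper-Pearson at 95% and, like floors of 3 UMIs, cover counting error only. All 7 members were named in each comparison, and of the 56 pathway genes those called, up to 6 of smallest p per fit, with the 3 genes most alike per member. Of these, genes at 50 CPM or more in a profile entered the ranking. The members and lists were chosen with earlier results of these data known. Replicate numbers were not treated as pairs, since nothing says they mark shared animals or days.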

Additional observations from a re-analysis of the deposited data

Results flagged for a closer look

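The wound effect on Il1f9 differed between fibroblasts and basal keratinocytes by 6.29 on the log2 scale in the test of the difference itself (± 1.47 SE, edgeR adjusted p = 0.0181). Fibroblasts had 0.848, 5.05 and 2.60 CPM in wounded skin and no UMI in un-wounded skin, and basal keratinocytes had 6.46, 12 and 16.8 CPM in wounded skin and 8.16 and 5.87 CPM in un-wounded skin. The fitted size depends on the handling of the un-wounded fibroblasts, in which no UMI was counted, and the call was lost without un-wounded library 2 (edgeR adjusted p = 0.396). Every wounded fibroblast level was below the basal level of the same library.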

How the results depend on the processing

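The number of members called moved as follows. Apart from DESeq2, the share of all genes called in each setting, or with a library left out, is not given here. The counts therefore describe the members' calls alone and cannot be set against a background. With DESeq2 the number was 5 in whole libraries (17.1% of all genes called), 1 in T or NK lymphocytes (1.27%) and 1 in pericytes (16.4%). In edgeR the number was 0 in each. Without the filter it was 3 in whole libraries, 4 in T or NK lymphocytes, 1 in pericytes and 2 for the difference between fibroblasts and basal keratinocytes. Without TMM it was 1 in pericytes. With doublets kept it was 1 in basal keratinocytes, 2 in fibroblasts, 1 in outer root sheath or bulge cells and 1 in pericytes, but that setting also regrouped the cells: fibroblasts numbered 1774, 1687 and 937 in the wounded libraries (2206, 1888 and 1396 without doublets), an erythroid class appeared and the neutrophil class did not. A mitochondrial limit of 5% gave 1 in T or NK lymphocytes and 1 in spinous keratinocytes. Without the 2 highest cells of each gene it was 1 in outer root sheath or bulge cells, and without cluster 27, chosen after seeing the data, 2 in fibroblasts. With the replicate number as a block it was 1 in T or NK lymphocytes, 6 in dendritic cells, 1 in outer root sheath or bulge cells, 1 in pericytes, 0 in whole libraries, 2 in basal keratinocytes, 5 in fibroblasts, 3 in spinous keratinocytes and 1 in upper hair follicle cells. In dendritic cells the block called Il18 (-1.34, edgeR adjusted p = 0.00699) and Il1r1 (-2.29, 0.0355) lower, and Il1a (0.0257) and Il1b (0.55, 0.00265) higher, beside Il1rn and Il1r2. Same-numbered libraries deviated together (r = 0.527 and 0.533 across 7652 genes, which are not independent), but 2 pairs do not show a pairing.

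Leaving out each library in turn gave 0 to 4 called members in whole libraries (4 without wounded library 1), 0 to 1 in T or NK lymphocytes, 2 to 3 in basal keratinocytes, 0 to 3 in dendritic cells, 1 to 5 in fibroblasts, 1 to 2 in outer root sheath or bulge cells, 0 to 1 in pericytes, 0 to 3 in spinous keratinocytes, 1 to 1 in upper hair follicle cells and 0 to 3 for the difference. The log2 ratio difference for Il1rn ranged from -3.54 to -1.07 and that for Il1r2 from -1.49 to 0.15, the last without un-wounded library 1. The cause of these moves was not tested.

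The calls of Il18 in fibroblasts and of Il1b in basal, outer root sheath and upper hair follicle keratinocytes held in every alternative run. Il1a in basal keratinocytes was lost with doublets kept (edgeR adjusted p = 0.0794; range 4.23e-08 to 0.0794), Il1r2 in dendritic cells without un-wounded library 2, Il1b in fibroblasts without un-wounded library 2 (0.0538), Il1b in spinous keratinocytes without un-wounded library 1 (0.143), and Il1f9 in spinous keratinocytes also without un-wounded library 1 (0.0577) or 2 (0.12) and at the 5% limit (0.0526). Direction turned for uncalled values. In basal keratinocytes Il1r1 was 0.14 with the block and -0.76 to 0.28 with a library left out (0.02 without wounded library 1, 0.28 without un-wounded library 2), Il1r2 was -0.89 to 0.20 with a library left out (0.20 without un-wounded library 1), and Il1f9 was -0.10 with the block. In spinous keratinocytes Il1r2 was -0.14 without TMM, -0.03 with the block and -0.18 to 0.31 with a library left out (-0.18 without un-wounded library 2). In upper hair follicle cells Il1r2 was 0.07 with DESeq2, 0.08 at Leiden resolution 2.0 and -0.41 to 0.36 with a library left out (0.36 without wounded or un-wounded library 1, 0.06 without wounded library 2), and Il1r1 was -0.34 to 1.43 (-0.34 without un-wounded library 1). The Il18 difference between fibroblasts and basal keratinocytes was 0.03 without TMM and -0.98 to 0.54 with a library left out (0.54 without wounded library 3, 0.03 without un-wounded library 2). The wounded fibroblast share of Il1r1 was 54.0% at Leiden resolution 2.0.

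Depth limits the low members. Wounded library 2 held 33 basal keratinocytes and un-wounded library 1 held 20 dendritic cells, so a level of 3 UMIs there is 12 and 25.4 CPM. A 5% mitochondrial limit in dendritic cells and pericytes, and resolution 2.0 in outer root sheath cells, left a library under 20 cells and were not run.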
